A study of Mus musculus with 31 samples.

Results

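The effect of the food additive E171 that the 4 exposure times share was measured in the colon of BALB/c mice with chemically induced colorectal cancer. All 16 arrays of mice given E171 (CRC + E171) were compared with all 15 arrays of their controls (CRC), which together are the 31 arrays of the series, in 1 model with the day of exposure as a term. E171 is food-grade titanium dioxide, and it was given by gavage at 5 mg per kg of body weight per day for 2, 7, 14 or 21 days. Control mice received the vehicle, water, by the same route. Every mouse of both exposures, controls included, had been treated with azoxymethane (AOM) and dextran sodium sulphate (DSS), and the mice were 4 to 6 weeks old when they were allocated. Each exposure and day held 4 arrays, 2 of males and 2 of females, except CRC at 21 days with 3 arrays (1 male, 2 females). Each array held the RNA of 1 mouse, so the p-values measure the spread between mice.

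AOM is a mutagen activated in the body, and DSS in the drinking water injures the colonic epithelium and starts a colitis, which heals over the following weeks while dysplastic crypts form. The colonic mucosa is a sheet of absorptive colonocytes and mucus-secreting goblet cells over a stroma of fibroblasts, vessels and immune cells. Particles that reach it meet the mucus, the epithelium with its conjugating enzymes, and macrophages that take up foreign material. In RNA of whole tissue, fewer cells of a type and less RNA per cell cannot be told apart.

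The arrays were not alike in ways that move with exposure. The 75th percentile of the processed signal, the level to which each array was scaled, was 4116 ± 1078 (SD) on the CRC arrays and 2701 ± 650 on the CRC + E171 arrays, a difference of -1415 (permutation test within days, two-sided, p = 1e-04, and 4e-04 after Benjamini-Hochberg adjustment over 4 array measures). By slide means it was lower with E171 on 8 of 8 slides, although each slide held CRC arrays of 1 day and CRC + E171 arrays of another (7 with 21 days, 2 with 14 days), so this comparison is not matched for day. All CRC arrays lay in column 2 of their slide and all CRC + E171 arrays in column 4, so exposure and column cannot be told apart. The share of spots well above background was 72.6% and 72.4% on average, with a permutation p of 0.871. The array labelled CRC 14 days, male 2, had an Xist level of -1.60, against -6.53 or less on the other arrays of males, and its Ddx3y level of -8.93 was below the -5.31 that was the lowest of the other males. Without it the comparison gave 465 of the differentially expressed genes defined below, against 346 with it.

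**Figure D1:**
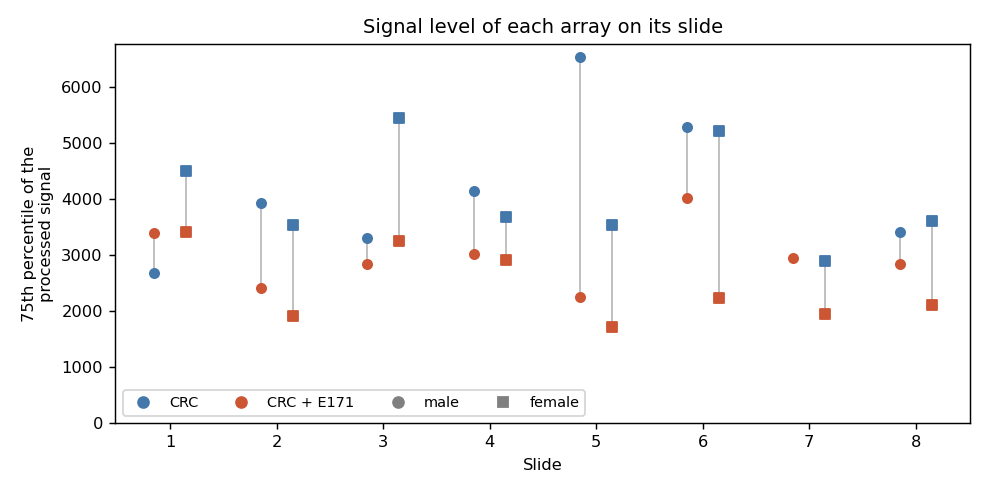
The 75th percentile of the processed signal (intensity, vertical axis from 0) of each array on slides 1 to 8, with CRC in blue, CRC + E171 in red, circles for males, squares for females and grey lines joining arrays of the same row of a slide. The CRC + E171 mean was the lower one on 8 of 8 slides, and 1 slide had no CRC male.

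Tissue other than colonic mucosa was seen on 10 arrays, 5 of each exposure, which were not balanced over days. Among them were CRC 7 days, males 1 and 2 and female 1, and CRC + E171 21 days, females 1 and 2. Fits without the 10 arrays thus hold female 2 as the only CRC array of 7 days. A list's level on an array is given here as the median over its genes of the scaled log2 signal, each gene centred on its mean over all arrays. The skeletal muscle list stood at 7.37 on the CRC array of 7 days, male 1, which also had a squamous epithelium level of 7.40. Squamous epithelium was further at 6.16 on CRC 21 days, female 1, and between 2.01 and 3.01 on 3 CRC + E171 arrays. Pancreatic acinar genes stood between 5.445 and 8.25 on 3 CRC arrays and at 9.84 or more on 2 CRC + E171 arrays. Neutrophil genes were highest on CRC 7 days, males 1 and 2 (4.65 and 5.38), and on CRC + E171 14 days, male 2 (3.98).

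Genes that mark position along the gut stood apart on 3 CRC + E171 arrays, the 7-day female 2 and the 14-day females 1 and 2. Hoxd13, a homeobox gene of the most posterior gut, stood between -8.19 and -5.47 on these 3 arrays and between -0.62 and 3.40 on the other 28. Hoxb13, of the distal colon and rectum, stood between -8.41 and -1.76 on the 3 arrays and between 1.29 and 6.49 on the others. The same 3 arrays held the highest levels of Fabp2, the intestinal fatty acid binding protein of enterocytes (6.43 to 7.13, others at most 3.66), and of Slc10a2, the ileal bile acid transporter (3.12 to 3.64, others at most 1.72), which was chosen after its values were seen. The study sampled distal colon, and whether these 3 samples came from another part of the bowel was not tested. No CRC array had a Hoxd13 level under -5, the limit by which the 3 are called low, and the results are therefore given without them as well. Of the 80 genes named in the text with an unadjusted p under 0.05, all 80 kept their sign without the 3 arrays and 45 kept a p under 0.05. That first p was taken with the 3 arrays included, so the kept signs are no support. Over all genes the share at a p under 0.05 was then 2.77% higher and 1.51% lower, with 13 CRC + E171 arrays.

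Of 19837 genes tested, 1 gene, Nlrp4d, had an adjusted p under 0.05, which is 0.00504% of the genes, and the next smallest adjusted p was 0.403. A differentially expressed gene (DEG) is here a gene that differed by 1.5-fold or more on the linear scale with an unadjusted p under 0.05. By that rule 117 genes (0.59%) were higher and 229 genes (1.15%) lower with E171, 346 DEG in all. Of the higher DEG 9 were well above background on no CRC array, and of the lower DEG 4 on no CRC + E171 array. Each of these passed the filter on dim probes only through a group of the exposure in which it was high. At an unadjusted p under 0.05 without the fold, 1194 genes (6.02%) were higher and 769 genes (3.88%) lower. The median log2 fold change over all genes was 0.03, and the median standard error was 0.16. In no gene did the 16 CRC + E171 arrays lie wholly outside the range of the 15 CRC arrays (0 of 19837, 0%).

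Lower DEG outnumbered higher ones under each scaling tried, and normexp background correction turned that order. Of the DEG, 33.8% were higher with E171 on the scale used here, 21.3% after quantile normalization (87 higher, 322 lower), 15.3% on the authors' normalized values (67 higher, 371 lower) and 62.1% after normexp background correction (128 higher, 78 lower). When the 3 arrays low in Hoxd13 were left out there were 121 DEG (36 higher, 85 lower), 75 of them shared with the 346. Without the 10 arrays with other tissue there were 556, and over all genes 7.62% were higher and 5.56% lower at a p under 0.05. Leaving out 1 array moved the count between 197, without CRC 7 days, male 2, and 746, without CRC + E171 14 days, male 2. With the array's signal level as a covariate there were 235 DEG (26 higher, 209 lower), and 34 of these were among the 346. Of the 346, 337 kept their sign in that fit, in which 1.7% of all genes were higher and 2.18% lower at a p under 0.05.

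**Figure D2:**
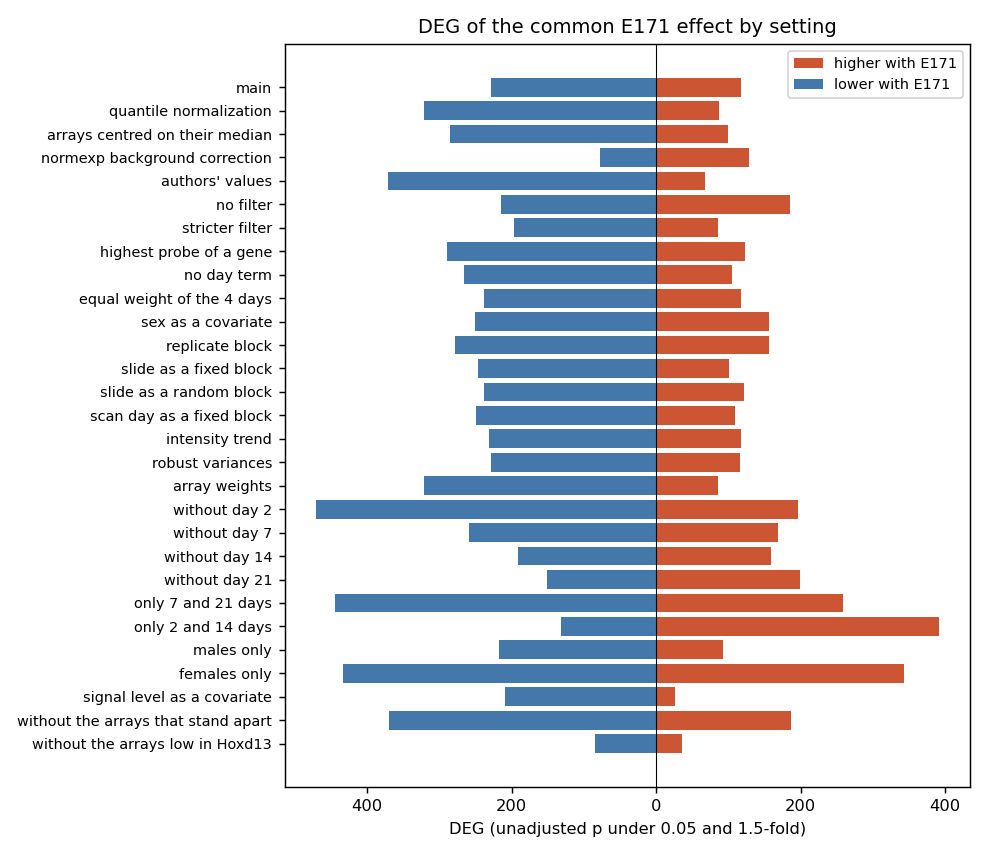
Number of DEG higher (red, to the right) and lower (blue, to the left) with E171 under each way of processing the arrays or choosing samples, one bar per setting. Lower DEG outnumber higher ones on the scale used for the report (229 against 117), and the order turns under normexp (78 against 128), without day 21 (151 against 199) and with the 2 and 14 days only (132 against 392).

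The genes brightest on the arrays were shifted together. Of the 1984 genes with the highest mean signal, 75.7% had a positive log2 fold change (median 0.10), and 178 were higher and 28 lower at an unadjusted p under 0.05. Of the 1984 dimmest genes the median was 0.03, with 63 higher and 58 lower. Cytosolic ribosomal protein genes had a median of 0.10 with 74 of 79 higher, of which 2 had a p under 0.05, and this median was -0.04 after quantile normalization and -0.03 on the authors' values. With the signal level as a covariate it was -0.18, with 0 of 79 higher and 21 lower at a p under 0.05, where 2.18% of all genes were lower.

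Nlrp4d was the 1 gene called. It encodes a NOD-like receptor of a gene cluster that is known mainly from oocytes and early embryos. A single probe measured it, at chr7:10944194-10944253 of mm9, and the first 30 of its 60 bases are shown because the whole call rests on this probe.
Nlrp4d probe: aaacctgcttgagcatcagaagctgtgtac

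The processed signal of this probe was dim on every array. It ranged from 7.11 to 16.01 with a median of 11.5 on the 15 CRC arrays, and from 5.92 to 104.5 with a median of 29.6 on the 16 CRC + E171 arrays. On the scaled log2 axis the CRC arrays lay between -9.09 and -7.84 (median -8.54) and the CRC + E171 arrays between -8.55 and -4.31 (median -6.57). Of the 16 CRC + E171 arrays, 14 were above the highest CRC array. On 3 of the 4 days the exposures did not overlap, and 11 of the 19837 genes tested had 3 such days. The probe was well above background on 0 of 15 CRC arrays and on 6 of 16 CRC + E171 arrays, 3 of males and 3 of females. The probe passed the filter on dim probes only through the CRC + E171 group of 7 days, where 3 of 4 arrays were well above background, and under a stricter filter over all arrays it was not tested. The gene therefore entered the test through a group in which it was high. The measured means were -8.46 and -6.52, with an adjusted p of 0.006417 in limma. No size of the difference is given, since the CRC arrays hold only an upper bound, and that bound, a mean of -6.30 against -6.52 with E171, leaves no difference that can be stated.

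The adjusted p of Nlrp4d depended on the arrays and the model. It was 0.001876 without the 3 arrays low in Hoxd13, 0.170 without the 10 arrays with other tissue, 0.060 with slide as a fixed block, and 0.999 with the signal level as a covariate. The authors' normalized table does not list this probe. Its relative Nlrp4e was well above background on 4 of 15 CRC arrays and on 0 of 16 CRC + E171 arrays (adjusted p 0.488). Nlrp1b, an inflammasome sensor of macrophages, had a log2 fold change of -0.38 ± 0.14 (adjusted p 0.488), and of -0.23 (p 0.105) without the 3 arrays. Of 14 Nlrp genes, 1 was higher and 2 were lower at an unadjusted p under 0.05. Among these, Nlrp4d and Nlrp4e each passed the filter only through a group of the exposure in which it was high. The count is therefore no result about the family.

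**Figure D3:**
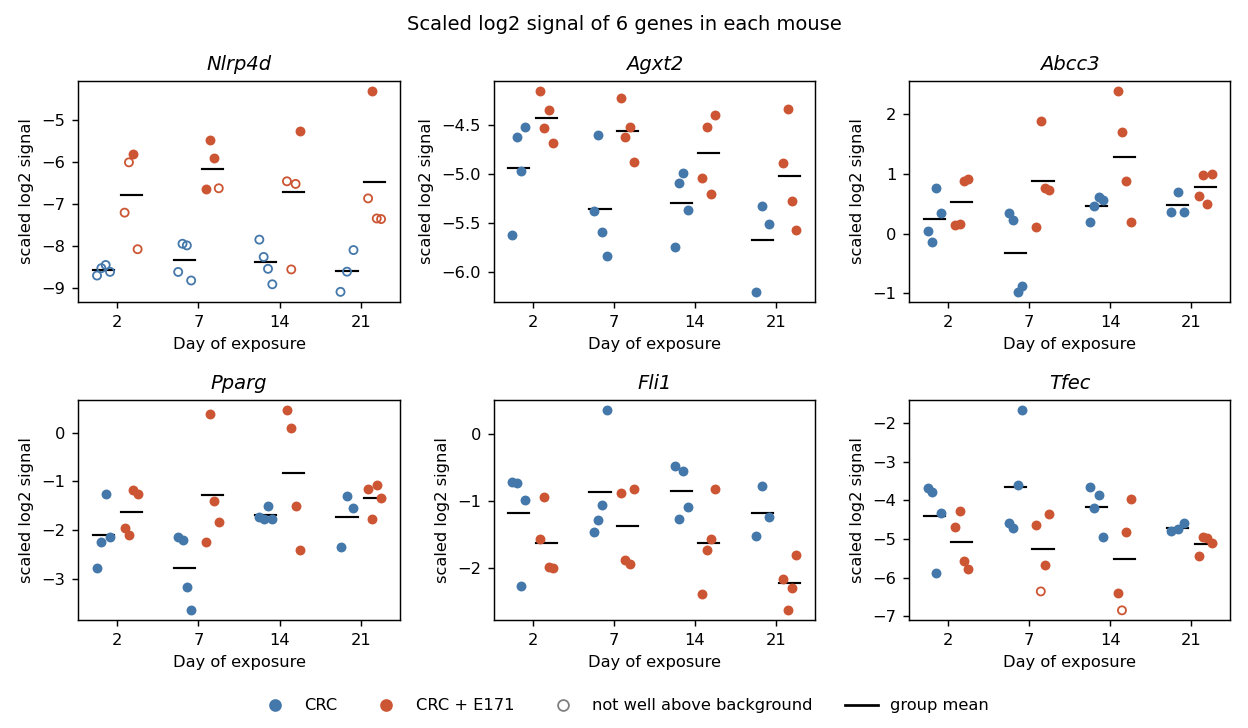
Scaled log2 signal (vertical axis) of 6 genes in each mouse by day of exposure, CRC in blue and CRC + E171 in red, open circles where the gene was not well above background and black lines for group means. For Nlrp4d all 15 CRC circles are open and lie at or below -7.84, while the CRC + E171 points reach -4.31. Some CRC + E171 mice at 7 and 14 days are high for Abcc3 and Pparg.

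Besides Nlrp4d, 11 genes higher and 11 lower with E171 were chosen by the smallest unadjusted p among DEG with effects of 1 sign on all 4 days. Their adjusted p-values lay between 0.403 and 0.488, so none passed the test across genes, and day signs were part of the choice. Over the 346 DEG, 245 (70.8%) had 1 sign on all 4 days, against 16.7% of all genes. DEG are picked on the mean of these same day effects, so a higher share was built in.

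Agxt2, a mitochondrial aminotransferase, lay between -6.21 and -4.53 with a median of -5.37 on the CRC arrays and between -5.57 and -4.15 with a median of -4.57 on the CRC + E171 arrays. The exposures overlapped, with 15 of 16 CRC + E171 arrays above the CRC median. Its log2 fold change was 0.62 ± 0.14 (SE), 1.54-fold, but its 2 probes differed, at 0.12 and 1.12, and the second was well above background on 10 of 15 CRC and 14 of 16 CRC + E171 arrays. Abcc3, an exporter of bile acid and glucuronide conjugates, had medians of 0.35 (CRC, -0.98 to 0.76) and 0.82 (CRC + E171, 0.11 to 2.39). Its log2 fold change of 0.66 ± 0.20 was 0.39 without the 3 arrays low in Hoxd13, and 12 of 16 arrays were above the CRC median.

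Pparg, a nuclear receptor for fatty acids that is abundant in colonocytes, had a log2 fold change of 0.83 ± 0.27. Its CRC arrays lay between -3.65 and -1.26 with a median of -2.14, and its CRC + E171 arrays between -2.40 and 0.48 with a median of -1.38. The effect was 1.52 at 7 days and between 0.40 and 0.87 on the other days. With the 3 arrays low in Hoxd13 left out it was 0.44, and its 2 probes gave 0.46 and 1.21. The second of these was well above background on 5 of 15 CRC and 13 of 16 CRC + E171 arrays, so its difference is taken against mostly dim CRC arrays. Fzd5, a Wnt receptor, had medians of -2.58 (CRC) and -2.25 (CRC + E171) and a log2 fold change of 0.67 ± 0.21, with 1.34 at 7 days and 0.34 to 0.51 on the others.

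The remaining higher genes ran from 0.61 to 0.78 in log2 fold change. Arl14, a small GTPase, stood at 0.78 ± 0.25, Rnf128, an E3 ubiquitin ligase, at 0.76 ± 0.24, and Ttc21a, a gene of cilia, at 0.75 ± 0.23. Sowaha, a little-studied gene with ankyrin repeats, stood at 0.70 ± 0.20, and all 16 CRC + E171 arrays were above its CRC median. Msh4, a MutS homologue of meiosis, stood at 0.64 ± 0.18 with 15 of 16 arrays above the CRC median. Etohd2 and Gabrd, a subunit of the GABA receptor, both stood at 0.61, with standard errors of 0.19 and 0.16. Gabrd was dim, and well above background on 8 of 15 CRC and 12 of 16 CRC + E171 arrays.

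Tfec, a transcription factor of macrophages, had the most negative log2 fold change of the 11 lower genes, -1.03 ± 0.32. It lay between -5.88 and -1.64 with a median of -4.33 on the CRC arrays and between -6.85 and -3.96 with a median of -5.04 on the CRC + E171 arrays, 14 of 16 of which were below the CRC median. By day it was -0.67, -1.61, -1.35 and -0.42. Without the 3 arrays low in Hoxd13 it was -0.66.

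Fli1, an ETS factor of endothelium and blood cells, had medians of -1.06 and -1.84 and a log2 fold change of -0.68 ± 0.20, and was lowest at 21 days (-1.05). Clec4a3, a lectin of myeloid cells, stood at -0.61 ± 0.17, and Cfp, which stabilises the alternative complement convertase, at -0.64 ± 0.20. Thy1, a surface protein of T cells, fibroblasts and neurons, stood at -0.66 ± 0.20 with 14 of 16 arrays below the CRC median.

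Adcy7, an adenylyl cyclase of immune cells, stood at -0.61 ± 0.18 and varied between -0.35 and -0.89 over the days. Trib2, a pseudokinase, stood at -0.87 ± 0.27 and Ildr2, an immunoglobulin-domain receptor, at -0.78 ± 0.25. Atp10d, a lipid flippase, Rftn1, a lipid raft protein of B cells, and Ppp1r18, an actin-binding regulator, stood at -0.66, -0.63 and -0.60, with standard errors of 0.21, 0.20 and 0.18. Each of the 22 genes named besides Nlrp4d kept its sign without the 3 arrays low in Hoxd13, without the 10 arrays with other tissue and with the signal level as a covariate. Of the 346 DEG, 346, 345 and 337 did so in these 3 fits. The genes were chosen on the same arrays, so the kept signs are no support. The median size of the effects of the 22 genes was 0.66 over all arrays and 0.52, 0.66 and 0.37 in these 3 fits. The effect moved by over 1.5 times in 7 genes without the 3 arrays, among them Arl14 (0.46), Ttc21a (0.50), Gabrd (0.39) and Cfp (-0.42). Without the 10 arrays Agxt2 moved by as much, to 0.35. With the signal level as a covariate 17 of the 22 did, among them Ttc21a (0.15), Ildr2 (-0.21), Gabrd (0.21) and Clec4a3 (-0.23).

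**Figure D4:**
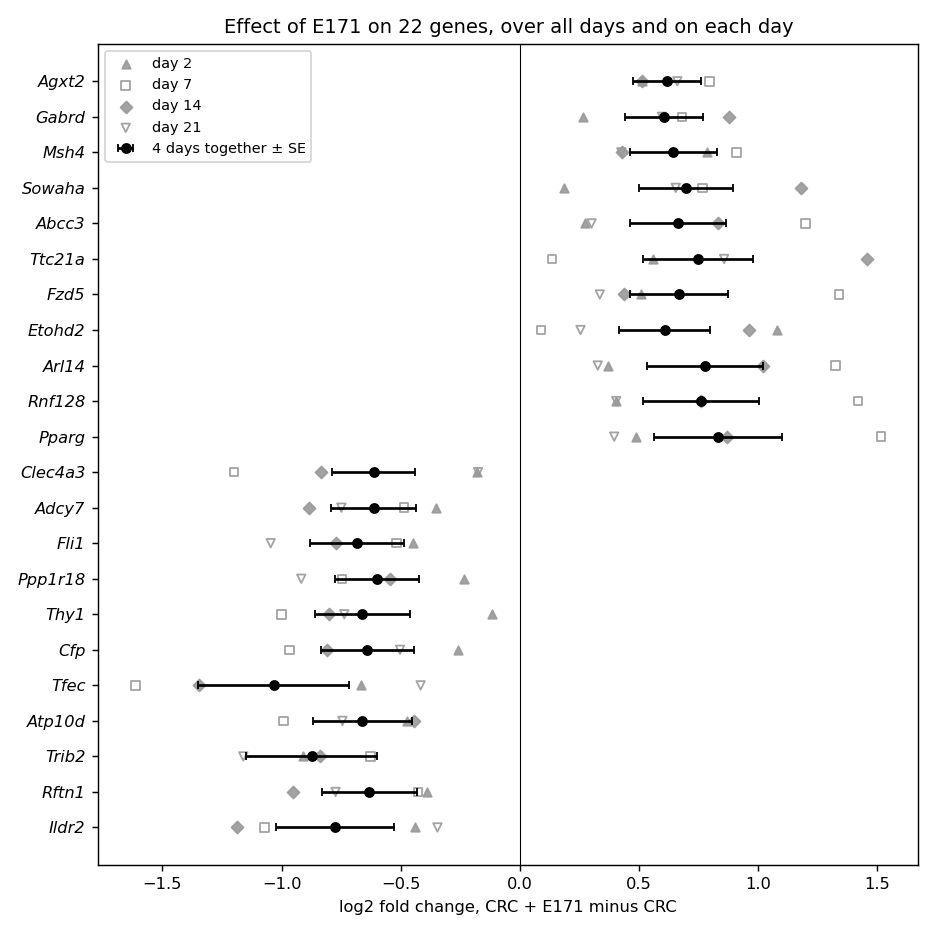
Log2 fold change (CRC + E171 minus CRC, horizontal axis) of the 22 genes named besides Nlrp4d, black points with bars of 1 standard error for the 4 days together and grey symbols for each day. All day symbols lie on the side of the black point, which the choice of genes fixed, and the most negative black point is that of Tfec at -1.03.

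Promoters of the DEG were searched for 8 motifs, on both strands, in the 250 bases before the start in RefSeq (GRCm38.p6). Of the genes tested, 15524 had a promoter there, as had 91 of the 117 higher DEG, and the shares are of genes with a promoter. The letters GAGGAAGT, which the ETS factor PU.1 of myeloid and B cells can bind, were in 15 of the lower DEG (8.77%), in 4 of the 91 higher DEG (4.4%) and in 2.89% of the genes tested. Of those 15, 4 (Pira2, Lilra6, Gm15448 and Gm14548) are paralogues of a receptor family and may share their sequence. The letters CAAAGTCCA, which the enterocyte and liver factor HNF4 can bind, were in 2 of the 91 higher DEG (2.2%), Agxt2 and Cyp2c65, in 1 lower DEG (0.585%) and in 0.502% of the genes tested. The other 6 motifs were the HNF4 core CAAAGT (14.3% of higher DEG, 17.5% of lower DEG and 13.5% of genes tested) and the PU.1 core GAGGAA (40.7%, 26.9% and 26.1%), each contained in its longer motif, the HNF1 letters GTTAAT (9.89%, 4.09% and 6.2%), the antioxidant response element TGACNNNGC (7.69%, 13.5% and 12.9%), the nuclear receptor letters AGGTCA (20.9%, 13.5% and 14.3%) and the cAMP response element TGACGTCA (4.4%, 1.17% and 2.49%). The promoters of 2 genes for each of the longer motifs of HNF4 and PU.1 are printed to show the match in its place. They run 5′ to 3′ on the strand of the gene, with the matched letters in capitals, and Mmp12 holds the reverse complement. The positions in GRCm38.p6 are chr15:10358283-10358532 for Agxt2 and chr19:39060756-39061005 for Cyp2c65, both on the plus strand, chr17:50190498-50190747 on the minus strand for Rftn1, and chr9:7344147-7344396 on the plus strand for Mmp12. A match is a description of letters and does not show that a factor binds.
Agxt2 promoter: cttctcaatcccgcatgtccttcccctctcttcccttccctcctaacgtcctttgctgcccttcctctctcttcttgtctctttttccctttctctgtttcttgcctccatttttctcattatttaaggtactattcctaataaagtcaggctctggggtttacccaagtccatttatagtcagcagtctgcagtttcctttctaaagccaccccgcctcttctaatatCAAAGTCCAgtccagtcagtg
Cyp2c65 promoter: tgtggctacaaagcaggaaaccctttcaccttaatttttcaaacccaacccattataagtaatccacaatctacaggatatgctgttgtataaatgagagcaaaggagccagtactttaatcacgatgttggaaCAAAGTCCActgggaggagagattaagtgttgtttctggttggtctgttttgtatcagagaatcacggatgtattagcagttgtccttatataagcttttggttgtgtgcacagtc
Rftn1 promoter: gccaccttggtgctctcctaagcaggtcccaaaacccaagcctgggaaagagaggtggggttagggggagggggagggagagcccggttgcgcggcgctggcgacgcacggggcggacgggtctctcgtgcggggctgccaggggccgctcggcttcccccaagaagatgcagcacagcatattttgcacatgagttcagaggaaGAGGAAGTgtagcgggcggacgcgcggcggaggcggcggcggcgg
Mmp12 promoter: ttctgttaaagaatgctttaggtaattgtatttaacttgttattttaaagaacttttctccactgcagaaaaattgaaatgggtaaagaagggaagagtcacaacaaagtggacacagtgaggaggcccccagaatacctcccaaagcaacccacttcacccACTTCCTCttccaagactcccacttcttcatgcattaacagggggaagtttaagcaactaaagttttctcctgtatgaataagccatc

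Gene lists by cell type and pathway were then described by the number of members with an unadjusted p under 0.05, to be read against 6.02% higher and 3.88% lower over all genes, and by the median log2 fold change, against 0.03. No listed gene other than Nlrp4d passed at an adjusted p under 0.05.

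Of the epithelial lists, those of epithelium in general, goblet cells and surface colonocytes had medians above that of all genes, and that of crypt stem cells, at 0.03, did not. The enteroendocrine median was 0.19, with 8 of 11 genes positive and 0 at a p under 0.05. It was -0.04 without the CRC array of 7 days, male 1. Of 12 genes of the epithelium in general, 12 had a positive log2 fold change, 4 of them with a p under 0.05, and the median was 0.45. Cldn7, a tight junction protein, had medians of 2.02 (CRC, -0.80 to 2.56) and 2.40 (CRC + E171, 1.88 to 2.94) and a log2 fold change of 0.59 ± 0.20, with 15 of 16 arrays above the CRC median. The keratins Krt19 and Krt18 stood at 0.51 ± 0.21 and 0.41 ± 0.19, and Epcam, the adhesion protein of all epithelia, at 0.30 ± 0.25 with a p of 0.247. Of 13 goblet cell genes, 13 had a positive log2 fold change and 0 a p under 0.05, with a median of 0.57. Muc2, the gel-forming mucin of the colon, stood at 0.83 ± 0.58, and Galnt12, which starts the sugar chains of mucins, at 0.47 ± 0.24. Genes of surface colonocytes had a median of 0.52 with 0 of 14 at a p under 0.05, and Car1, carbonic anhydrase 1, stood at 1.28 ± 0.68. Of 11 crypt stem cell genes 6 had a positive log2 fold change and 1 was higher at a p under 0.05, Sox9, a transcription factor of the crypt base (0.49 ± 0.16), whose 2 probes gave 0.27 and 0.72. Lgr5, the stem cell receptor for R-spondins, stood at -0.13 ± 0.45.

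The medians of epithelium, goblet cells and surface colonocytes came largely from day 7. At 7 days they were 1.38 for epithelium, 2.35 for goblet cells and 2.43 for surface colonocytes, and on the other days they lay between -0.59 and 0.41. Without the CRC array of 7 days, male 1, they were 0.20, 0.21 and 0.20 over all days. Krt19, Krt18 and Epcam stood at 0.33, 0.24 and 0.09 without that array. That array, which held the skeletal muscle and squamous genes, had an epithelium level of -3.51, against CRC and CRC + E171 medians of 0.10 and 0.29. Without the 10 arrays with other tissue the medians were 0.12, 0.32 and 0.19, and Krt19, Krt18 and Epcam stood at 0.14, 0.12 and 0.06. Without the 3 arrays low in Hoxd13 the medians were 0.46, 0.41 and 0.29, with 3, 0 and 0 members higher at a p under 0.05. Muc2 was then at 0.43 (p 0.471), Galnt12 at 0.30 (p 0.232) and Car1 at 0.66 (p 0.334). The part of tissue composition in these values was not tested.

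Enzymes of biotransformation also had medians above that of all genes. Of 70 cytochrome P450 genes, which oxidise xenobiotics and lipids, 56 had a positive log2 fold change, 6 were higher at a p under 0.05 and 0 lower, a share near the 6.02% of all genes, and the median was 0.28. In the fit without the 3 arrays low in Hoxd13, 2 were higher and 2 lower. Cyp2c65 and Cyp2c66, arachidonic acid epoxygenases of the gut, had the largest differences, 2.04 ± 0.83 and 1.89 ± 0.72. The CRC arrays of Cyp2c65 lay between -8.10 and -1.26 with a median of -1.79, and the CRC + E171 arrays between -3.82 and 5.15 with a median of -1.62. The 3 arrays low in Hoxd13 held the 3 highest values, 4.48 to 5.15, and the other 28 arrays reached at most 0.40. Without these 3 arrays Cyp2c65 was at 0.72 (p 0.212) and Cyp2c66 at 0.68 (p 0.126). Cyp2w1, an enzyme of developing and tumorous colon, stood at 0.43 ± 0.17 and at 0.41 (p 0.044) without them.

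Of 19 UDP-glucuronosyltransferases and sulfotransferases, which conjugate xenobiotics and bile pigments, 3 were higher at a p under 0.05 and the median was 0.48. Ugt2b38 stood at 1.71 ± 0.82 and Ugt2b37 at 1.32 ± 0.48, and without the 3 arrays low in Hoxd13 they stood at 0.22 (p 0.571) and 0.45 (p 0.049). Ugt1a6a, which conjugates phenols, stood at 0.67 ± 0.23, and at 0.36 (p 0.079) without them, the list's median was then 0.17, and 1 of the 19 was higher. Of 24 glutathione S-transferases 21 had a positive log2 fold change and 4 a p under 0.05, with a median of 0.13 that was 0.14 without the 3 arrays. The microsomal Mgst2 and Mgst3 stood at 0.56 ± 0.23 and 0.53 ± 0.23, and the mitochondrial Gstk1 at 0.49 ± 0.23. Without the 3 arrays they stood at 0.32 (p 0.163), 0.43 (p 0.104) and 0.19 (p 0.333), and no glutathione S-transferase had a p under 0.05 (0 of 24). The P450 median was 0.25 without the 3 arrays and 0.00 without the 10 arrays with other tissue.

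Genes of the antioxidant response went both ways. Of 18 genes of oxidative stress and the NRF2 factor, 5 were higher and 2 lower at a p under 0.05, with a median of 0.15, and 3 were higher and 0 lower without the 3 arrays low in Hoxd13. Keap1, which holds NRF2 in the cytosol, had medians of 2.37 (CRC, 1.68 to 2.74) and 2.66 (CRC + E171, 2.13 to 2.98) and stood at 0.30 ± 0.09, with 15 of 16 arrays above the CRC median. Gclm, a subunit of the first enzyme of glutathione synthesis, stood at 0.42 ± 0.12, and Txnrd1, thioredoxin reductase, at 0.39 ± 0.11 with 14 of 16 arrays above the CRC median and 2 probes at 0.11 and 0.66. The lower members, named after their values were seen, were Slc7a11, the cystine transporter, at -1.06 ± 0.46, and Sod3, extracellular superoxide dismutase, at -0.60 ± 0.25, and they stood at -0.72 (p 0.149) and -0.46 (p 0.104) without the 3 arrays low in Hoxd13. Keap1, Gclm and Txnrd1 had positive effects on each of the 4 days and unadjusted p-values of 0.009, 0.015 and 0.008 without the 3 arrays low in Hoxd13. Nqo1, a standard NRF2 target, stood at 0.20 ± 0.25 with 8 of 16 arrays above the CRC median. Of 14 genes of fatty acid oxidation and ketogenesis 2 were higher, Ppara (0.91 ± 0.40) and Acadm (0.28 ± 0.14), and the median of 0.29 was -0.02 without the 3 arrays. Ppara was then at 0.28 (p 0.306) and Acadm at 0.17 (p 0.226).

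Lists of innate immune cells had medians below that of all genes. Of 12 macrophage genes, 11 had a negative log2 fold change and 6 were lower at a p under 0.05, and the median was -0.30. The list's level on the arrays was between -0.33 and 1.38 with a median of 0.24 for CRC, and between -0.75 and 0.34 with a median of -0.19 for CRC + E171. Fcgr1, a high-affinity IgG receptor, stood at -0.55 ± 0.21, and Mrc1, the mannose receptor of tissue macrophages, at -0.48 ± 0.20 with 14 of 16 arrays below the CRC median. Adgre1, a surface receptor of mature macrophages, stood at -0.19 ± 0.14 with a p of 0.208. The macrophage median was negative on each of the 4 days (-0.75 to -0.09), and it was -0.30 without the 10 arrays with other tissue and -0.21 without the 3 arrays low in Hoxd13. Without those 3, 1 of the 12 was lower at a p under 0.05, and Fcgr1 stood at -0.42 (p 0.068) and Mrc1 at -0.33 (p 0.132).

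Complement was the list with the most members lower at a p under 0.05. Of 28, 11 were lower and 0 higher, and 24 had a negative log2 fold change, with a median of -0.42 that lay between -0.63 and -0.10 on the 4 days. Cfp is given above. Masp2, a protease that starts the lectin pathway, stood at -0.43 ± 0.15, and C1qc, a chain of C1q made by macrophages, at -0.42 ± 0.16. The levels of the list on the arrays had medians of 0.16 (CRC, -0.23 to 1.44) and -0.32 (CRC + E171, -0.63 to 0.41). When the 3 arrays low in Hoxd13 were left out the median was -0.33 and 5 of 28 were lower, with Masp2 at -0.48 and C1qc at -0.27 (p 0.083).

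Chemokine, cytokine and lymphocyte genes were lower in median too, with few members at a p under 0.05. Of 48 chemokines and receptors 5 were lower and 1 higher, with a median of -0.31. Ccr2, which brings monocytes to tissue, stood at -0.73 ± 0.25 with 14 of 16 arrays below the CRC median, Ccl21a, a chemokine of lymphatic vessels, at -0.53 ± 0.21, and Ccl27a at -0.27 ± 0.12. Of 17 cytokines of inflammation 1 was lower, Tgfb1 (-0.52 ± 0.22), and the median was -0.32. Tnf stood at -0.26 ± 0.23. Genes of T and NK cells had a median of -0.47 with 1 of 14 lower, Foxp3, the factor of regulatory T cells (-0.74 ± 0.30). Cd3e, a chain of the T cell receptor complex, stood at -0.05 ± 0.29 with a p of 0.865 and 2 probes at -0.17 and 0.07, and Cd5, of T cells, at -0.90 ± 0.47 with a p of 0.064. B and plasma cell genes had a median of -0.54 and MHC class II genes one of -0.26, each with 0 members at a p under 0.05, although 10 of 10 MHC class II genes had a negative log2 fold change. The B and plasma cell median was -0.32 without CRC 21 days, female 2, and the MHC class II median -0.12 without CRC + E171 2 days, male 2. Neutrophil genes had a median of -0.72 over all arrays, with 0 of 12 at a p under 0.05, and it was -0.36 without CRC 7 days, male 2, and -0.42 without the 3 arrays low in Hoxd13. By day this median was -2.99 at 7 days and between -0.07 and 0.06 on the other days. With the 3 arrays low in Hoxd13 left out, 2 chemokines and receptors were lower and 0 higher, with Ccr2 at -0.44 (p 0.074) and Ccl21a at -0.34 (p 0.105). Tgfb1 was then at -0.33 (p 0.145) and Foxp3 at -0.58 (p 0.080).

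Lists of vessels and connective tissue also had medians below that of all genes. Of 12 endothelial genes, 12 had a negative log2 fold change and 4 a p under 0.05, and the median was -0.30. Cdh5, the cadherin of endothelial junctions, stood at -0.58 ± 0.23 with 15 of 16 arrays below the CRC median, Flt4, a receptor of lymphatic vessels, at -0.38 ± 0.15 and Pecam1 at -0.29 ± 0.13. Fibroblast genes had a median of -0.29 with 3 of 12 lower, among them Fbln1 (-0.36 ± 0.14) and Mfap5 (-0.61 ± 0.27), which encode matrix proteins. Of 40 collagens 5 were lower, with a median of -0.17. Col5a1 and Col4a1 both stood at -0.63 ± 0.26, Col6a2 at -0.31 ± 0.12 and Col1a1 at -0.49 ± 0.22, and the 4 probes of Col1a1 ran from -0.68 to 0.01. Without the 3 arrays low in Hoxd13, 0 endothelial, 1 fibroblast and 2 collagen genes were lower at a p under 0.05. Cdh5 was then at -0.48 (p 0.075), Flt4 at -0.22 (p 0.132), Pecam1 at -0.22 (p 0.133) and Mfap5 at -0.42 (p 0.154). Col5a1 was at -0.39 (p 0.140), Col4a1 at -0.43 (p 0.124) and Col1a1 at -0.27 (p 0.211).

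Genes that act on the matrix were similar in median. Matrix metallopeptidases and their inhibitors had a median of -0.41 with 3 of 23 lower, Mmp23 (-0.51 ± 0.15), Mmp12, the macrophage elastase (-0.60 ± 0.22, with 3 probes from -1.04 to -0.06), and Mmp2, a gelatinase of fibroblasts (-0.47 ± 0.22). Of 16 CRC + E171 arrays, 15 were below the CRC median for Mmp23 and 15 for Mmp2. Of 30 integrins 4 were lower with a median of -0.14. Itga5, the fibronectin receptor chain, had medians of -1.02 (CRC, -2.06 to 1.12) and -1.76 (CRC + E171, -3.04 to -0.10) and stood at -0.93 ± 0.31. Itgb2, the leukocyte integrin chain, stood at -0.59 ± 0.23, and Itga9 at -0.41 ± 0.13. In the fit without the 3 arrays low in Hoxd13, 1 metallopeptidase and 3 integrins were lower, and Mmp12 stood at -0.42 (p 0.063), Mmp2 at -0.36 (p 0.146) and Itgb2 at -0.43 (p 0.077).

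With the signal level of the array as a covariate, many of these genes were near 0. Mrc1 was at 0.02, Mmp2 at 0.050 and Col1a1 at -0.002, while Itga5 went from -0.93 to -0.47 and Thy1 from -0.66 to -0.57. Several list medians changed sign in that fit, to 0.06 for fibroblasts, 0.01 for endothelium, 0.04 for collagens and 0.02 for neutrophils, and to -0.06 for glutathione S-transferases and -0.10 for fatty acid oxidation. The medians of macrophages (-0.10), complement (-0.12), T and NK cells (-0.44) and epithelium (0.53) kept theirs, with 0 of 12, 1 of 28, 0 of 14 and 1 of 12 members at a p under 0.05, where 1.7% of all genes were higher and 2.18% lower.

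**Figure D5:**
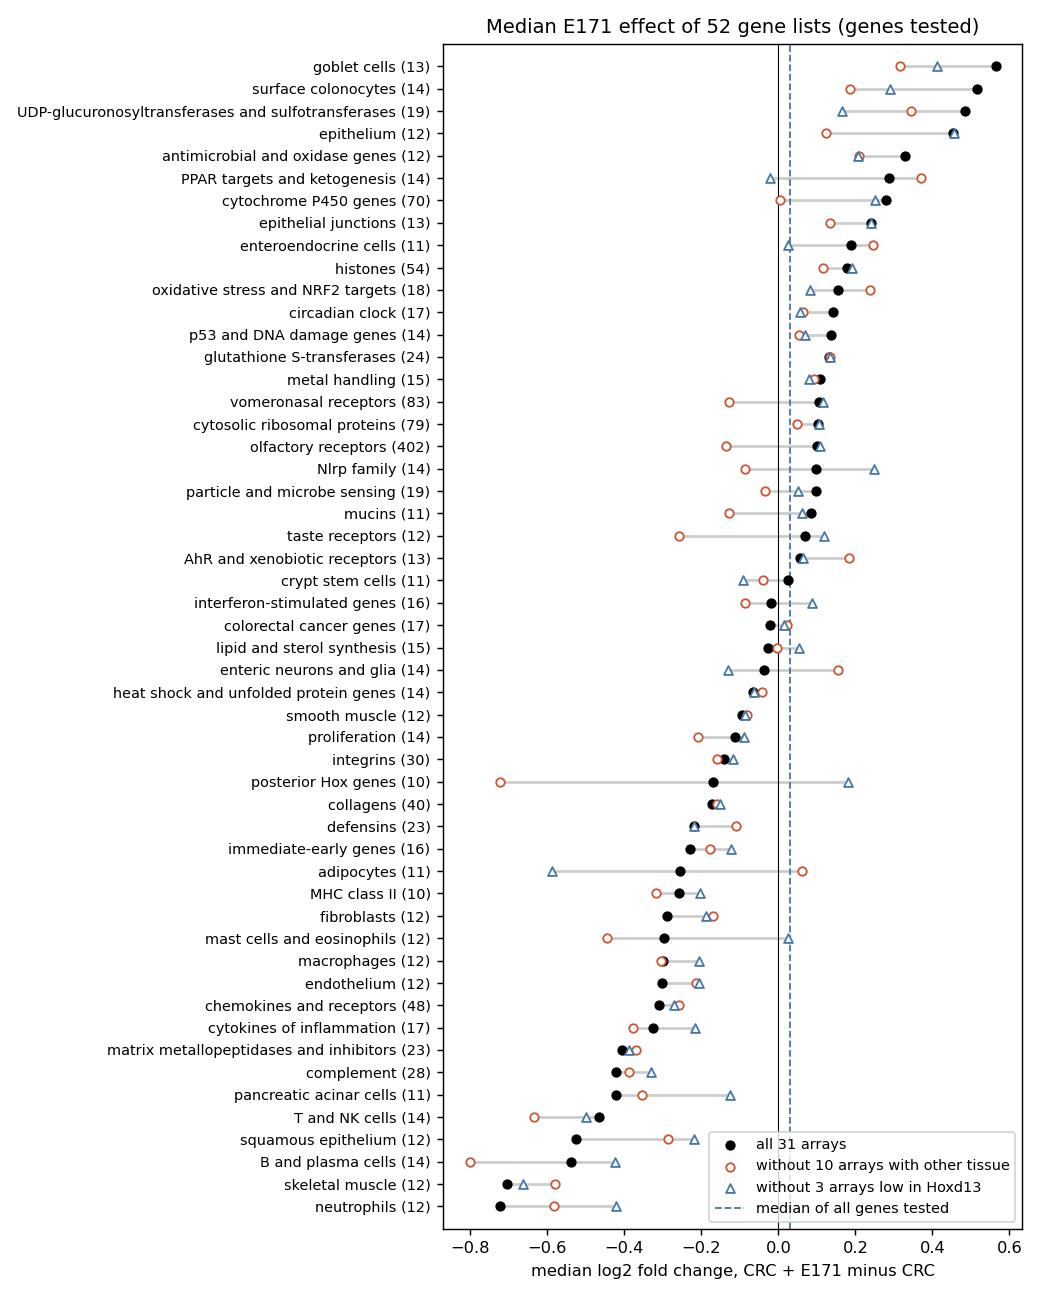
Median log2 fold change (CRC + E171 minus CRC) of 52 gene lists, with the number of genes tested in parentheses, for all 31 arrays (black), without the 10 arrays with other tissue (red circles) and without the 3 arrays low in Hoxd13 (blue triangles). Complement stays between -0.42 and -0.33 in these 3, while the UDP-glucuronosyltransferase median goes from 0.48 to 0.17 without the 3 arrays and the cytochrome P450 median to 0.00 without the 10.

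Genes that sense particles and microbes did not share a direction. Of 19, 2 were higher and 3 lower at a p under 0.05, with a median of 0.10. Pycard, the adaptor of inflammasomes, had medians of -0.83 (CRC, -1.79 to -0.33) and -0.57 (CRC + E171, -0.95 to 0.055) and stood at 0.37 ± 0.11 with 14 of 16 arrays above the CRC median. Sting1, the sensor adaptor for cytosolic DNA, stood at -0.60 ± 0.25, and Msr1, a scavenger receptor of macrophages, at -0.56 ± 0.24. Nlrp3, the inflammasome sensor that particles can activate, stood at 0.056 ± 0.19 with a p of 0.765, and 10 of 16 CRC + E171 arrays were above the CRC median. When the 3 arrays low in Hoxd13 were left out Sting1 was at -0.32 (p 0.174) and Msr1 at -0.34 (p 0.171), and 1 of the 19 was higher and 0 lower.

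Genes of colorectal cancer split evenly. Of 17, 3 were higher and 3 lower at a p under 0.05, and the median was -0.02. Apc, the tumour suppressor that restrains Wnt signalling, stood at 0.34 ± 0.10 with 13 of 16 arrays above the CRC median. Lef1, a Wnt transcription factor that T cells also express, stood at -0.96 ± 0.34, and Tgfbr2, the TGF-beta receptor, at -0.38 ± 0.13 with 14 of 16 arrays below the CRC median. With the 3 arrays low in Hoxd13 left out, 2 of the 17 were higher and 0 lower, with Lef1 at -0.59 (p 0.082) and Tgfbr2 at -0.28 (p 0.056). In the p53 and DNA damage list 1 of 14 was higher, Sesn2, a stress-induced regulator of growth signalling (0.48 ± 0.15), and Cdkn1a, the classical p53 target, stood at 0.14 ± 0.10 with a p of 0.196 and 3 probes from -0.07 to 0.51.

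Of 402 olfactory receptor genes tested, 10 were higher and 0 lower at a p under 0.05, a smaller share than the 6.02% of all genes, with a median of 0.10. Olfr815, which had the smallest p, was well above background on 0 of 15 CRC and 4 of 16 CRC + E171 arrays. It therefore entered the test only through a CRC + E171 group in which it was high, and its p is no support. Of 83 vomeronasal receptors 2 were higher, among them Vmn1r231 at 0.94 ± 0.26, which was well above background on 5 of 15 CRC and 11 of 16 CRC + E171 arrays. The medians of both families were 0.52 and 0.61 at 2 days and between -0.18 and 0.24 on the other days, and -0.14 and -0.13 without the 10 arrays with other tissue, where 0 olfactory receptors were higher and 15 of 402 lower, a smaller share than the 5.56% of all genes in that fit. Skeletal muscle genes, which mark tissue from outside the mucosa, had a median of -0.70 with 12 of 12 negative and 1 at a p under 0.05, Myh1. This gene was well above background on 6 of 15 CRC and 0 of 16 CRC + E171 arrays, so it entered the test only through a CRC group in which it was high. Without the CRC array of 7 days, male 1, the skeletal muscle median was -0.33, and Acta1 went from -0.85 to -0.43. The median was -0.58 with 5 of 12 lower without the 10 arrays with other tissue, and -1.47 with 8 of 12 lower with the signal level as a covariate.

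Whether the effect of E171 differed between days was tested as an interaction. No gene had an adjusted p under 0.05 (smallest 0.614, with 1294 genes at an unadjusted p under 0.05). The 7 and 21 days shared no array and no slide with the 2 and 14 days. The 7 and 21 days alone gave 704 DEG and the 2 and 14 days alone 524, of which 16 were in both, 2.27% of the first and 3.05% of the second. Over all genes 2.64% were DEG at 2 and 14 days and 3.55% at 7 and 21 days, so the shared part was no larger than the share of all genes. Of these 16, 7 had the same sign in both. Of the DEG of 7 and 21 days, 69.6% had the same sign at 2 and 14 days. In the other direction the share was 41.8%, and over all genes 56.2%.

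Males and females were likewise tested for a difference. No gene had an adjusted p under 0.05 for the interaction with sex (smallest 0.980, 777 genes at an unadjusted p under 0.05), and without the array whose sex-linked genes went against its label the smallest was 0.981. Within that model males had 608 DEG and females 577, which are 3.06% and 2.91% of all genes, and 12 genes were DEG in both with the same sign. In fits of each sex alone males had 310 DEG and females 777, and males alone had 392 without the array that went against its label. Which sex had more was thus not stable between the models. Epithelium had a median of 0.84 in males and 0.17 in females, and the CRC array of 7 days with the epithelium level of -3.51 was that of a male.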

How the data were processed

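RNA of the colon of 31 mice was hybridised singly to one-colour Agilent SurePrint G3 mouse arrays. The authors extracted the spots with Feature Extraction 10.7.3.1, and the deposited intensity is the processed signal, from which background and spatial trend had been removed, with no normalization across arrays. Their second table holds log2 values, which the authors filtered, imputed by nearest neighbours and normalized by a method not given in the sources used here. The submitters' processing notes name limma. The authors' table served as an alternative, since its columns matched the arrays they are named for (31 of 31, Spearman's correlation at least 0.994).

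Here, spots marked as outliers and control spots were left out, and the value was log2 of the processed signal minus log2 of the array's 75th percentile over non-control probes. Differences are on this log2 scale. A probe was kept where in at least 1 group 60% of the arrays were unmarked and well above background with a mean log2 signal of 4 or more, which left 42787 of 56605 probes. Probes were named through RefSeq by accession (33889), symbol (9462) or synonym (489), and 12765 stayed unnamed. Kept probes of a gene were averaged, and of 19837 genes 57 lacked a value on some array. Of the 23 genes named by p 7 had several probes, none of both signs, and of all genes in the text 34 had several, 3 of them (Cd3e, Cdkn1a and Col1a1) of both signs.

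Each gene was fitted in R 4.3.3 with limma 3.58.1 and statmod 1.5.0 on day and exposure over all 31 arrays, with empirical Bayes variances and Benjamini-Hochberg adjustment over all genes. Two-sided unadjusted p-values in the text come from the same fit. Interactions with day and with sex were tested in models over all groups. The number of arrays limits the precision. Named genes were those with an adjusted p under 0.05, filled up to 12 a direction by the smallest unadjusted p among DEG with 1 sign on all 4 days, well above background on at least 50% of the arrays of each exposure and not known by a clone or predicted name only, and for each list its first gene and the 3 of smallest p. Some genes that this rule named are not reported here. These lists, members and rules were chosen with earlier results of these data known. Alternatives were other normalizations, filters, probe choices, covariates, blocks, days, sexes and arrays left out. The signal covariate, the probe-level fit and leaving out the 10 or the 3 arrays were chosen after seeing the data.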

Additional observations from a re-analysis of the deposited data

Results flagged for a closer look

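In the groups of 4 arrays, the highest or lowest array of each named gene was set against the others by Dixon's criterion, which chance passes in about 1 in 20 groups. Of 161 pairs of a gene and a group, 9 passed, a share close to that of chance. Each is given as its scaled log2 signal.

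On the array of CRC + E171 at 14 days, male 2, 3 of the lower genes stood above the other 3 mice of the group, Thy1 at 3.17, Ppp1r18 at 2.45 and Trib2 at -1.86. This array also had a squamous epithelium level of 2.53 and a neutrophil level of 3.98, and leaving it out gave the highest count of DEG, 746. The CRC array at 2 days, male 1, was apart in 2 genes, with Fli1 at -2.27 below the others of its group and Sowaha at -2.81. Leaving it out gave 589 DEG. Rftn1 stood apart at 2.89 on CRC 7 days, male 2, an array high in neutrophil and pancreatic acinar genes, without which there were 197 DEG.

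Nlrp4d was at -4.31 on CRC + E171 21 days, female 2, its highest level on any array. Without that array its adjusted p was 0.001825. Gabrd was at -4.26 on CRC + E171 7 days, female 2, one of the 3 arrays low in Hoxd13, and Clec4a3 at -2.28 on CRC + E171 2 days, male 2.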

How the results depend on the processing

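The count of genes with an adjusted p under 0.05 in limma was 1 over all 31 arrays, with 1963 genes at an unadjusted p under 0.05. It was 0 on the authors' values (1797 genes at an unadjusted p under 0.05), under a stricter filter, with slide as a fixed block, without day 2, without day 7, with 7 and 21 days only, with 2 and 14 days only, in males only, in females only, with the signal level as a covariate and without the 10 arrays with other tissue. It was 2 with no filter (4930571K23Rik added), with array weights (Dag1 added) and without day 21 (Zfp111 added), and 293 after normexp, 259 of them in the dimmer part of the genes. Leaving out 1 array gave 1 to 2. The fitted value of Nlrp4d, which is no size of effect since no CRC array was well above background, was 1.94 over all arrays, 1.93 with slide as a fixed block (adjusted p 0.060), 1.99 without day 2, 1.86 without day 7, 2.16 with 7 and 21 days only, 1.74 with 2 and 14 days only, 1.92 in males only, 2.01 in females only, 0.92 after normexp, 1.59 with the signal covariate and 1.48 without the 10 arrays. Leaving out 1 array gave 1.79 to 2.09.

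The 346 DEG (117 higher, 229 lower) became 206 after normexp (78 lower), 667 without day 2 (196 higher, 471 lower), 704 with 7 and 21 days only (259 and 445), 524 with 2 and 14 days only (392 and 132), 777 in females only (343 and 434), 857 probes when each probe was tested (383 and 474), 556 without the 10 arrays (186 and 370) and 121 without the 3 arrays low in Hoxd13 (36 and 85). The authors' values gave 67 higher and 371 lower, no filter 185 higher, without day 21 199 higher and 151 lower, and the signal covariate 26 higher. Leaving out 1 array gave 197 to 746 DEG, 70 to 311 higher and 127 to 436 lower. Of the 52 list medians, 39 moved by over 1.5 times without some array, 9 of them with a change of sign. Endothelium, cytokines of inflammation, T and NK cells and cytochrome P450 genes were among the 39. Macrophages, complement, chemokines, integrins, collagens and fibroblasts were among the 13 that did not. So were posterior Hox genes, fatty acid oxidation and the UDP-glucuronosyltransferases, yet their medians were 0.18, -0.02 and 0.17 without the 3 arrays low in Hoxd13. The cause of these changes was not tested. Of 15 pairs of arrays with the same number, the deviations from the group means correlated over genes from -0.18 to 0.48, above 0.1 in 8. Pairs of unlike number were not set beside them, so whether the numbers pair the mice was not tested. A replicate block gave 434 DEG, 1 adjusted call and 1.97 for Nlrp4d.

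Among named genes, 13 changed sign in some setting. With the signal covariate Nqo1 was -0.076, Ppara -0.13, Mrc1 0.017, Mmp2 0.050, Msr1 0.0015, Nlrp3 -0.073 and Hoxb13 0.035. Without the 3 arrays low in Hoxd13, Nqo1 was -0.14, Hoxb13 0.34 and Hoxd13 0.22. Epcam was -0.15 with 2 and 14 days only and -0.18 in females only, Muc2 -0.019 without day 7 and -0.10 with 2 and 14 days only. Nqo1 was -0.15 without day 14 and -0.014 with 7 and 21 days only, Hoxb13 0.56 in males only, and Cdkn1a -0.031 by its highest probe and -0.093 in females only. Nlrp3 was -0.084 on the authors' values, -0.011 with array weights, -0.070 without day 2, -0.035 without day 21, -0.10 with 2 and 14 days only, -0.0048 in females only, -0.055 without the 10 arrays and between -0.015 and 0.11 with 1 array left out. Cd3e was 0.013 with 2 and 14 days only and between -0.17 and 0.059 with 1 array left out. Lgr5 was 0.049 after normexp, 0.085 without day 2, 0.12 in females only, 0.048 without the 10 arrays and between -0.32 and 0.095 with 1 array left out.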

Other observations

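Some lists were described in no comparison above. Of 54 histone genes 48 had a positive log2 fold change, with a median of 0.18 and 1 higher at an unadjusted p under 0.05. Their median was -0.11 with the signal level as a covariate. Of 13 genes of epithelial junctions 11 had a positive log2 fold change, with a median of 0.24, which was 0.24 without the 3 arrays low in Hoxd13. Antimicrobial and oxidase genes had a median of 0.33 with 1 of 12 higher, Pigr, the carrier of secretory antibodies (0.72 ± 0.33), and 0 without the 3 arrays. Metal handling genes had a median of 0.11 with 0 of 15 at a p under 0.05 in either direction. Proliferation genes had a median of -0.11 with 13 of 14 negative and 0 at a p under 0.05, and a median of 0.08 with the signal covariate. The medians of the circadian clock, the heat shock and unfolded protein genes, and lipid and sterol synthesis were 0.14, -0.066 and -0.026.

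Medians of other lists turned with the arrays that were left out. The posterior Hox genes stood at -0.17 over all arrays, at 0.18 without the 3 arrays low in Hoxd13 and at -0.72 without the 10 arrays with other tissue. Adipocyte genes stood at -0.25, -0.59 and 0.062, and mast cell and eosinophil genes at -0.30, 0.025 and -0.44 in the same order. Interferon-stimulated genes had a median of -0.02 over all arrays, with 0.86 at 7 days and -0.44 at 21 days.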
